A study of Gossypium hirsutum with 63 samples.

Results

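Ovules of upland cotton (Gossypium hirsutum) collected at 1 day post anthesis (1 DPA) were compared with young leaves over 7 genotypes, using 40 of the 63 RNA-seq libraries of the series. The members were chosen by their tissue label, with 1 exception: the ovule libraries 2 and 3 of hybrid L were left out because they stood apart from every other ovule library, so that 19 ovule libraries and 21 leaf libraries entered. The study set 3 hybrids beside their inbred parents to examine yield heterosis. The hybrids were H (labelled SJ48x98-15), M (labelled SJ48x51-2) and L (labelled SJ48xT-8). The parents were A (SJ48, the mother of all 3 hybrids), B (Z98-15), C (851-2) and D (DT-8). By the study, the fathers of H, M and L were B, C and D, in that order. The sample labels and the study name no transgene or treatment for these groups. All plants were grown in the field, each leaf sample pooled young leaves of different plants, and ovules came from tagged open flowers of random plants, with 3 biological replicates per genotype and tissue. The labels give the squaring stage for all libraries, ovules included. The remaining libraries were flower buds, and their levels are given beside a few genes for reference.

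The mesophyll of a leaf builds thylakoids that harvest light and a stroma in which rubisco fixes carbon dioxide. A cotton ovule just after anthesis is a sink organ, made of a nucellus wrapped in integuments, and epidermal cells of its outer integument bulge out as the initials of the seed fibres. Sucrose imported through the phloem is cleaved there to supply wall polysaccharides and very-long-chain lipids, and MADS-box proteins give the ovule its identity. Growing cells in either organ need wall-loosening proteins, water channels and hormone signals, but can draw on different members of the same gene families.

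Levels are in FPKM, fragments scaled to transcript length and to the mapped fragments of the library, which allows comparison between genes of different length. Total FPKM ran from 418915 to 477980 in the 21 ovule libraries and from 410556 to 449250 in the 21 leaf libraries, and the values hold no read counts, so the depth behind each value is not known here. Pearson's r of log2(FPKM + 1) over genes was 0.916 to 0.953 between ovule libraries, 0.888 to 0.946 between leaf libraries and 0.642 to 0.732 between an ovule and a leaf library. The L ovule libraries 2 and 3 had an r of 0.824 to 0.859 with the other ovule libraries and of 0.598 to 0.652 with leaf, against 0.916 with each other. The 100 most abundant genes held 5.96% to 8.02% of all FPKM in an ovule library, against 9.10% to 15.8% in a leaf library. By the study's quality table, all leaf libraries and only the 5 ovule libraries A 1 to 3, B 1 and B 2 had a lower share of bases at Q30, so base quality and tissue largely cannot be told apart. Some genes were listed at 0 in a library and at 10 FPKM or more in another library of the same genotype and tissue (1209 genes, 1.88% of those tested), 20 of them for cytosolic ribosomal proteins. An exact 0 is therefore reported only as listed at 0.

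The 64162 genes that passed 0.5 FPKM in 1 or more of the 40 libraries were tested, and 13100 (20.4%) were called: 6890 (10.7%) were higher and 6210 (9.68%) were lower in ovule than in leaf. These calls used limma on log2(FPKM + 1) with genotype as a block, an adjusted p under 0.05 and a log2 difference above 1 or below -1, and all log2 differences below are ovule minus leaf on that scale, which understates changes of low genes. In bulk tissue, fewer cells of a type and less RNA per cell cannot be told apart. Large falls outnumbered large rises: beyond 3 on the log2 scale there were 405 rises and 1049 falls, and beyond 5 there were 47 and 179. Every ovule library was above every leaf library for 9716 genes (15.1%) and below for 6086 (9.49%). Among the called genes, 5246 rises (8.18% of the genes tested) and 4823 falls (7.52%) had no overlap between the libraries of the tissues. The balance of directions depended on scaling. Rises made up 52.6% of the calls on the deposited values, 45.3% after quantile normalization and 35.5% after median-of-ratios scaling, which moved the median log2 difference of all genes by -0.17, to -0.03 instead of 0.14. None of the calls reversed under either scaling. With the 5 lower-Q30 ovule libraries as the only ovule libraries, beside the A and B leaf libraries, 92.4% of the rises and 88.9% of the falls were still called.

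Genes for photosynthesis were lower in ovule. All 31 called members of the 33 Calvin cycle genes were lower, with a median log2 difference over the list of -6.04 against 0.14 for all genes. The summed level of the list was 32.6 to 69.2 FPKM (median 38.7) in ovule and 8176 to 20884 FPKM (median 13424) in leaf. The libraries of the tissues did not overlap in this sum. For rubisco activase Gh_A10G1991, which keeps rubisco in its active state, ovule libraries had 0 to 0.279 FPKM (median 0.0221), against 955 to 2646 FPKM (median 1574) in leaf libraries. Its log2 difference of -10.55 ± 0.08 (the error is the SE here and below) was the largest fall among the described genes named here (limma adjusted p = 2.25e-44, lower in every ovule library than in every leaf library). The small subunit of rubisco Gh_D11G1671 had 0.744 to 3.91 FPKM (median 1.52) in ovule, against 734 to 3054 FPKM (median 1483) in leaf, a difference of -9.21 ± 0.16. Members that share a description did not all fall alike: the 8 genes annotated as rubisco small chain ranged from -9.21 to 0.78, with 6 called lower, and the 6 rubisco activase genes from -10.55 to -1.72, all 6 called lower.

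The light reactions showed the same direction. Of 45 light-harvesting chlorophyll proteins, which hold the antenna pigments, 37 were lower and 0 higher (median -3.61), and their summed level was 33.7 to 72.1 FPKM in ovule and 4793 to 7803 FPKM in leaf. Among 31 photosystem I subunits 25 were lower and 0 higher (median -4.78), and among 35 nuclear-encoded photosystem II subunits 25 were lower and 0 higher (median -2.40). A light-harvesting chlorophyll-protein of complex II, Gh_Sca123119G01, was the most abundant of them: it had 5.89 to 21.9 FPKM (median 8.80) in ovule and 1795 to 2972 FPKM (median 2301) in leaf, a difference of -7.78 ± 0.09 with no overlap. Photosystem II subunit Q-2 Gh_D10G0167, a part of the oxygen-evolving complex, differed by -7.74 ± 0.08, and photosystem I subunit D-2 Gh_A02G0295 by -7.73 ± 0.21. Gh_A02G0295 was listed at 0 in most ovule libraries but had 4.71, 3.88 and 4.44 FPKM in the ovules of hybrid H, where its difference was the smallest of the 7 genotypes (-5.83). A further 45 genes were listed as copies of photosystem proteins that the plastid genome encodes. Their median was 0.17, and 1 was higher and 0 lower. They were low in both tissues, with sums of 20.7 to 86.2 FPKM in ovule and 14.9 to 38.3 FPKM in leaf. Whether they reflect transcripts of the plastid itself was not tested.

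Processes that attend photosynthesis were lower as well. Photorespiration, which recycles the product of the rubisco oxygenase reaction, had 17 of 23 genes lower and 2 higher. Its alanine:glyoxylate aminotransferase Gh_D13G2270, a peroxisomal enzyme in Arabidopsis, was listed at 0 in most ovule libraries and reached at most 0.110 FPKM there, against 147 to 392 FPKM (median 245) in leaf. The 2 genes that were higher both carry the description alanine:glyoxylate aminotransferase 2 (1.33 and 1.95). Of 23 genes for chlorophyll synthesis, 16 were lower and 1 higher: magnesium chelatase subunit H Gh_D09G1147 had 1.66 to 3.37 FPKM (median 2.53) in ovule and 101 to 234 FPKM (median 165) in leaf. Of the ribosomes, 15 of 30 plastid ribosomal proteins were lower and 0 higher, while 33 of 641 cytosolic ribosomal proteins were higher and 9 lower (5.15% and 1.40%, below the shares of all genes). After median-of-ratios scaling 16 cytosolic ones were higher and 11 lower, and the plastid counts stayed at 15 lower and 0 higher.

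**Figure D1:**
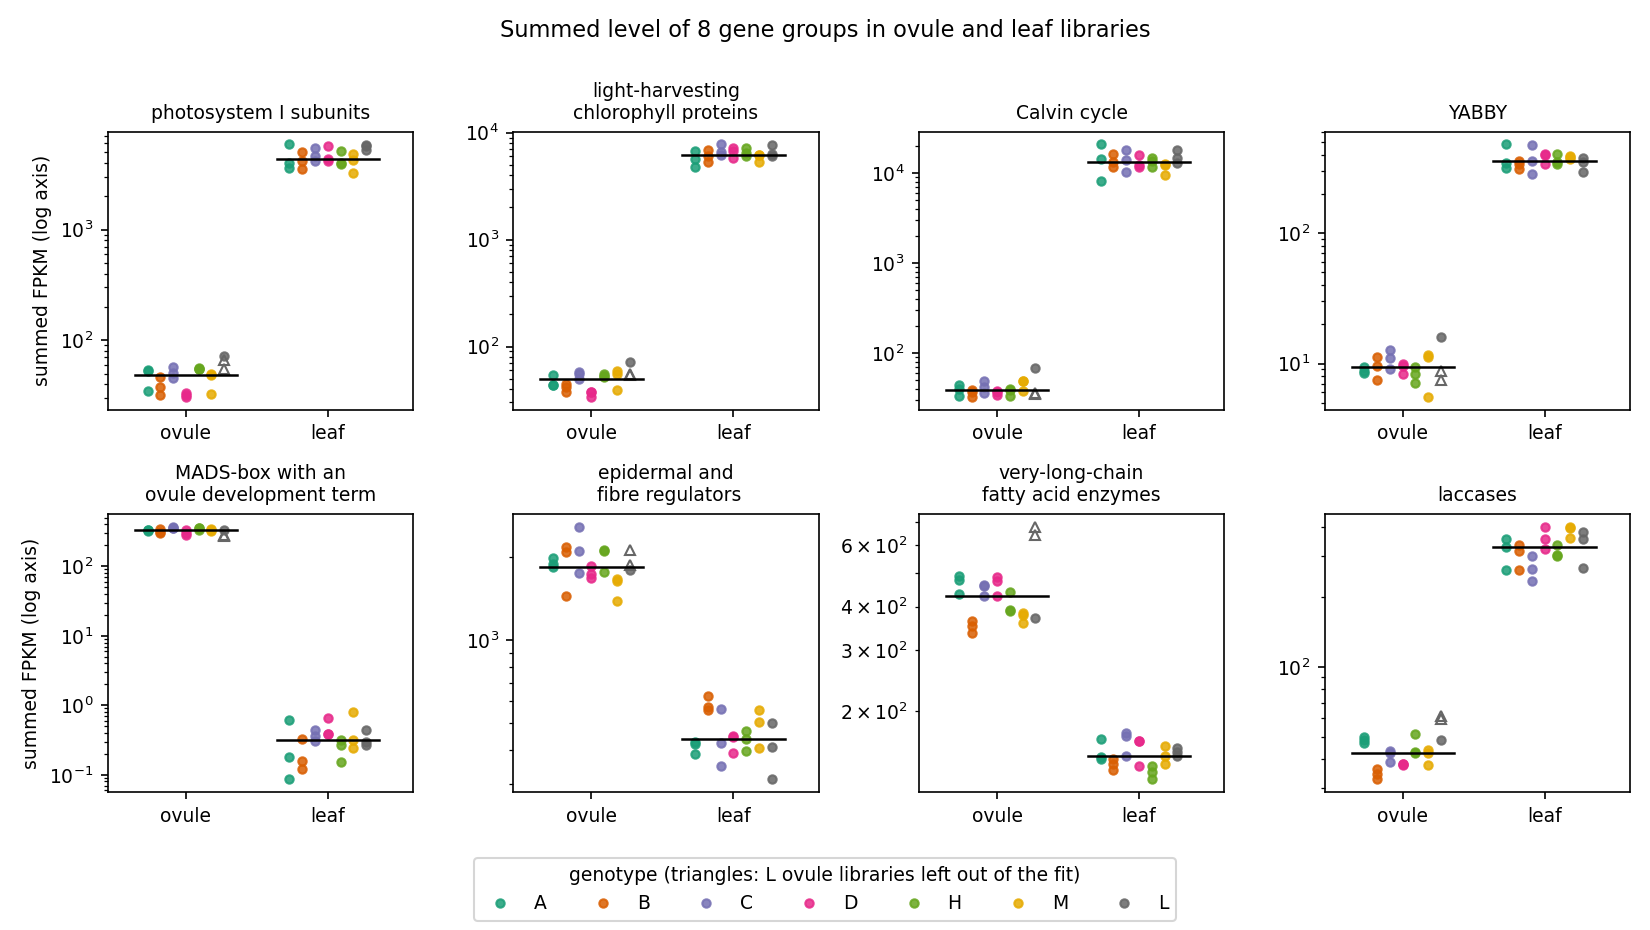
Summed FPKM (log axis) of 8 gene groups in each ovule library (left) and leaf library (right), coloured by genotype, with black lines at the tissue medians and triangles for the L ovule libraries left out of the fit. Photosystem I, light-harvesting, Calvin cycle, YABBY and laccase sums lie lower in ovule (Calvin cycle median 38.7 FPKM, YABBY median 9.37 FPKM) than in leaf, and the other 3 groups lie higher, with no overlap in any panel.

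Some regulators of organ identity separated the tissues without overlap, and others were not called. MADS-box factors, which specify floral organs and ovules, were called in both directions. Of 111 tested, 33 were higher and 30 lower, each without overlap (29.7% and 27.0%, against 8.18% and 7.52% of all genes). All 8 MADS-box genes that carry a gene ontology term for ovule development were higher (median 5.49), and their summed level was 287 to 373 FPKM (median 334) in ovule, against 0.0859 to 0.803 FPKM (median 0.315) in leaf and 55.8 to 98.4 FPKM in flower buds. These 8 genes were among several markers read for the ovule label, and the 2 ovule libraries left out also had them, at 279 and 274 FPKM. Other markers did not follow them: the YABBY genes with an ovule development term and anthocyanidin reductase, given below, were not called higher in ovule. Over all 99 tested genes with an ovule or integument development term, 20 were higher and 7 lower (median 0.34), so most were not called. Gh_D05G2596 of this group had 37.2 to 66.4 FPKM (median 56.1) in ovule and was listed at 0 in all 21 leaf libraries. The largest rise among MADS-box genes was in Gh_A04G1491, which had 127 to 166 FPKM (median 146) in ovule and at most 0.158 FPKM in leaf (7.16 ± 0.03, limma adjusted p = 6.95e-53, higher in 19 of 19 ovule libraries than in any leaf library). Its level in flower buds was 59.0 to 118 FPKM. The subfamilies differed in direction. Of 8 genes described as AGAMOUS-like 6, 6 were higher and 2 lower, while 4 of 5 AGAMOUS-like 8, 4 of 8 AGAMOUS-like 20 and 4 of 4 AGAMOUS-like 19 genes were lower. In Arabidopsis, AGAMOUS-like 6 acts in flowers, and AGAMOUS-like 8, 19 and 20 act in the switch to flowering and in inflorescence or fruit growth.

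YABBY proteins, which mark the lower side of lateral organs and promote blade growth, went the other way. Of 23 YABBY genes, 20 were lower in ovule and 0 higher (median -3.68), and the sum was 5.53 to 16 FPKM (median 9.37) in ovule and 283 to 483 FPKM (median 356) in leaf. Gh_A05G0082 was listed at 0 in most ovule libraries and had at most 0.272 FPKM there, against 25.6 to 45.6 FPKM (median 36.5) in leaf (-5.12 ± 0.05). The YABBY genes with an ovule development term went against their use as an ovule marker: Gh_D01G1535 had 0.562 to 2.36 FPKM in ovule and 0.437 to 2.42 FPKM in leaf (0.03 ± 0.10), and Gh_A01G1348 was lower in ovule (-1.39 ± 0.06). Homeobox genes of the KNOX, BEL1-like and POX classes, which act in meristems and organ boundaries, had 22 of 71 members lower and 2 higher. BEL1-like homeodomain 1 Gh_A09G0940 had 0 to 0.154 FPKM (median 0.0270) in ovule and 19.4 to 44.2 FPKM (median 24.5) in leaf, a difference of -4.63 ± 0.06. WUSCHEL related homeobox 1 Gh_A12G2429, a factor for blade outgrowth in Arabidopsis, had 0.245 to 1.67 FPKM in ovule, against 15.7 to 43.2 FPKM in leaf (-4.17 ± 0.11). Across all 22 WUSCHEL-related genes 4 were lower and 0 higher.

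Growth-regulating factors, which promote cell proliferation in young organs, were higher in ovule for 11 of 32 members and lower for 3 (median 0.71). Gh_A10G0492, growth-regulating factor 5, had 10.5 to 18.5 FPKM (median 16.2) in ovule and 0.0756 to 0.947 FPKM (median 0.351) in leaf (3.55 ± 0.06), and 6 of 9 growth-regulating factor 9 genes were higher with 0 lower. Cell cycle genes moved little. Of 67 histones 1 was higher and 2 lower, of 31 mitotic cyclins and cell cycle kinases 1 was higher and 0 lower, and of 86 DNA replication genes 2 were higher and 0 lower, all below the 10.7% and 9.68% of all genes. Among the cell cycle lists D-type cyclins alone, which drive entry into the cycle, passed the background share, and for falls only: 10 of 57 were lower and 5 higher. Cyclin D2;1 Gh_D05G2124 had 11.2 to 18.5 FPKM (median 13.9) in ovule and 0.145 to 0.855 FPKM (median 0.405) in leaf (3.36 ± 0.06), whereas Cyclin D6;1 Gh_D05G1589 fell by 2.13 on the log2 scale.

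Regulators of the epidermis and of fibre initials had the largest share of rises of the 70 lists after the MADS-box genes with an ovule term. Of 27 genes, 15 were higher in ovule and 4 lower (median 1.3; 1.05 after median-of-ratios scaling). The sum was 1386 to 2586 FPKM (median 1847) in ovule and 313 to 627 FPKM (median 440.1) in leaf, without overlap, and most of it came from the 2 genes for protodermal factor 1, a wall protein of epidermal cells. Of these, Gh_D04G0335 had 621 to 1439.7 FPKM (median 1003) in ovule and 111 to 289.6 FPKM (median 176) in leaf (2.39 ± 0.11, limma adjusted p = 1.52e-20, no overlap). It also ranked among the most abundant genes of the ovule. The homeodomain gene GLABROUS 11 Gh_D12G2590, whose Arabidopsis relatives control trichome form, had 10.7 to 14.4 FPKM (median 13.3) in ovule and 0.331 to 1.36 FPKM (median 0.712) in leaf, a difference of 3.03 ± 0.06. Both protodermal factor 2 genes were higher too (2.99 ± 0.05 for Gh_A10G0143 and 2.43 ± 0.08 for Gh_D10G0146). The MIXTA-like group, MYB factors of epidermal cell outgrowth, was mixed. Of 7 genes described as myb domain protein 16, 3 were higher and 1 lower, and of 6 described as the close relative MYB106, 2 were higher and 1 lower, so these markers did not point 1 way. Among 6 genes described as homeodomain GLABROUS 2, 2 were higher and 2 lower.

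**Figure D2:**
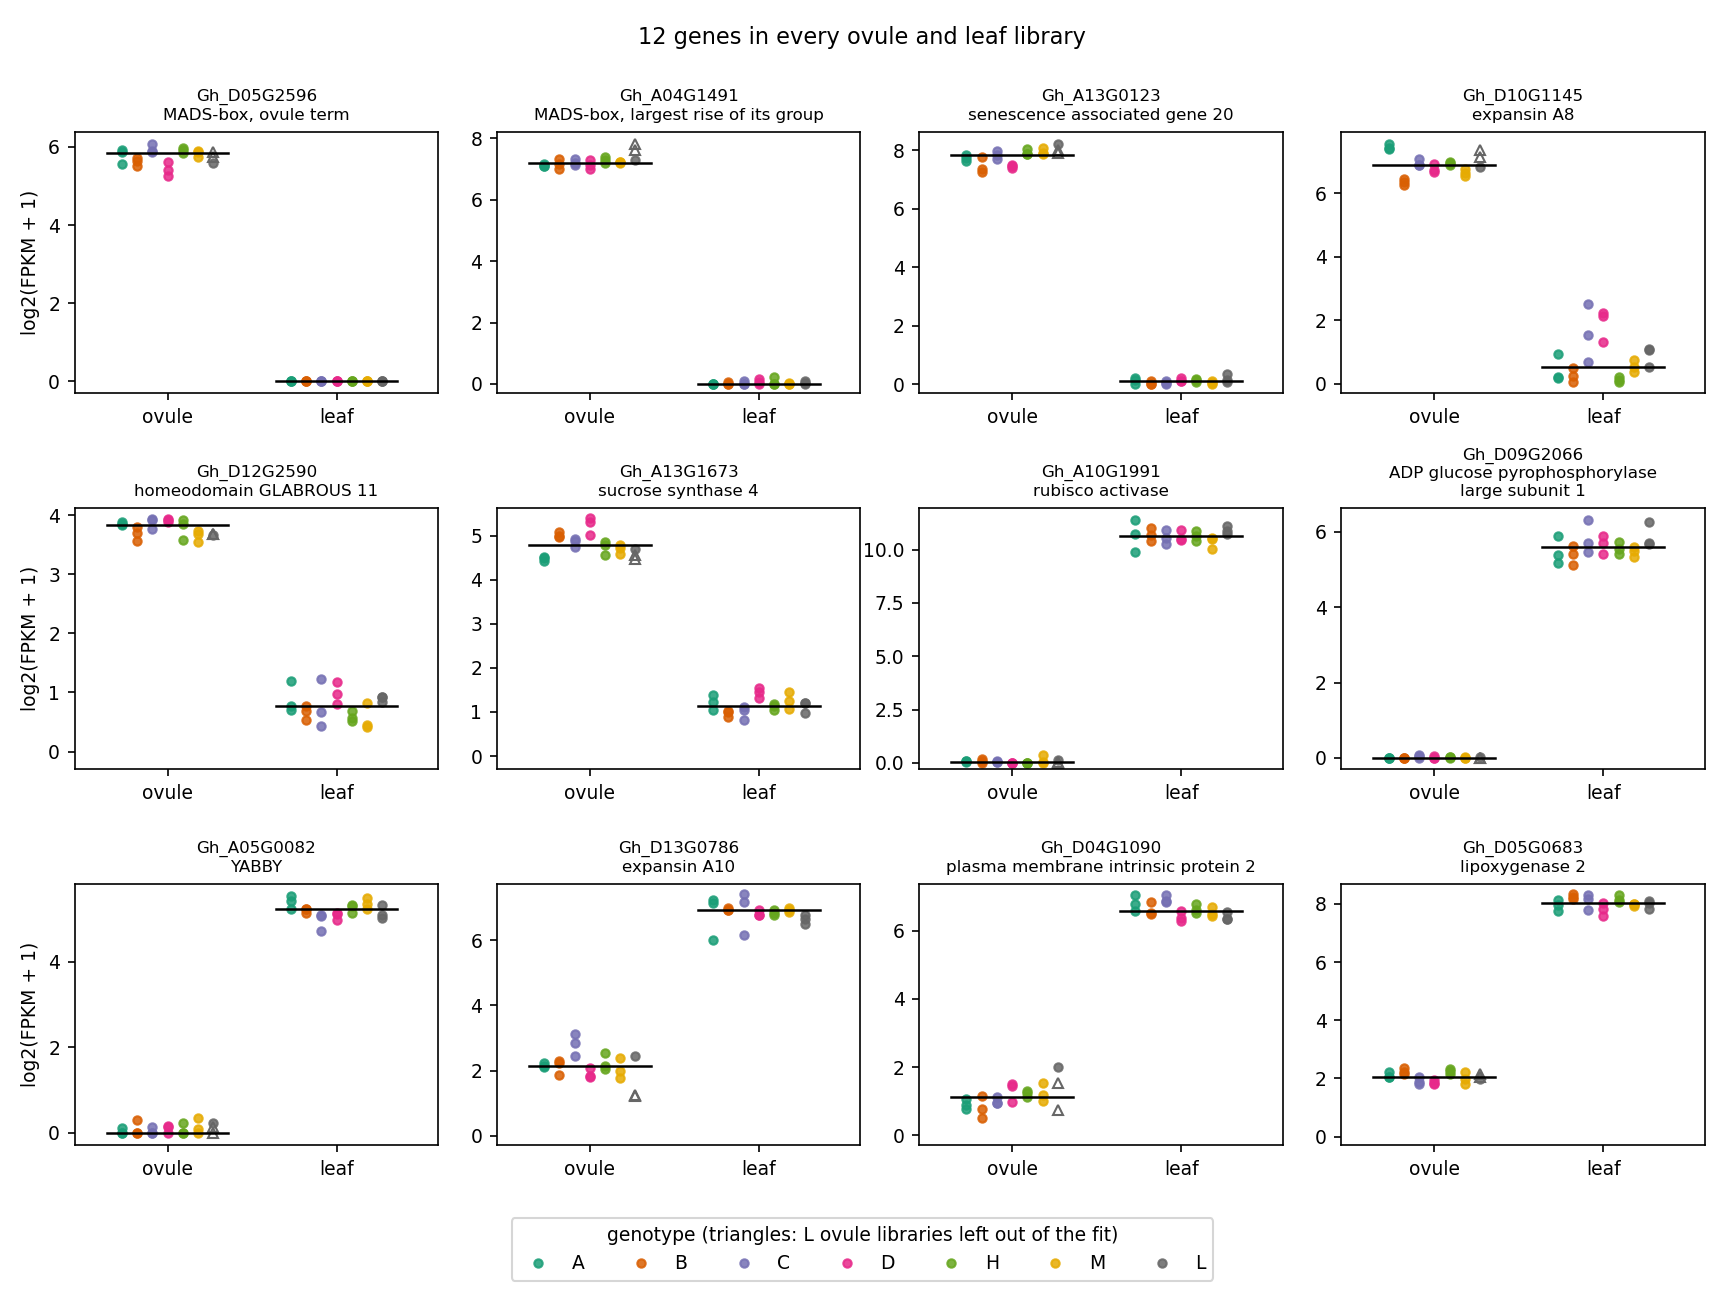
Level of 12 genes, as log2(FPKM + 1), in each ovule library (left) and leaf library (right), coloured by genotype, with black lines at the tissue medians and triangles for the L ovule libraries left out of the fit. The first 6 genes lie higher in every ovule library, by 3.03 (GLABROUS 11) to 7.67 (senescence associated gene 20) where a difference is given, and the last 6 lie lower, with differences from -4.63 (expansin A10) to -10.55 (rubisco activase).

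Wall-loosening genes switched members rather than moving as a block. Expansins, which let the wall extend, had 13 of 75 members higher and 23 lower, and their summed level was lower in ovule, at 421 to 589.9 FPKM (median 476), against 644 to 964 FPKM (median 841) in leaf. Expansin A8 Gh_D10G1145 had 75.8 to 186 FPKM (median 116) in ovule and 0.0405 to 4.64 FPKM (median 0.439) in leaf, a difference of 6.04 ± 0.16, and Gh_A10G2323, of the same description, differed by 5.98 ± 0.14. Yet 6 of the 12 expansin A8 genes were lower, and the range within this 1 description was -4.60 to 6.04. Expansin A10 Gh_D13G0786 showed the reverse, with 2.42 to 7.68 FPKM (median 3.40) in ovule and 62.9 to 169.8 FPKM (median 120.5) in leaf. Xyloglucan enzymes and endoglucanases, which cut and rejoin wall glucans, had 21 of 99 members higher and 17 lower, and xyloglucan endotransglucosylase Gh_D12G0752 was among the largest rises of the list (3.81 ± 0.06). The median of that list, 0.08, turned to -0.07 after median-of-ratios scaling.

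Cellulose synthases, which spin out cellulose at the plasma membrane, had 11 of 36 members lower and 1 higher. Of the 5 genes described as cellulose synthase A4, known in Arabidopsis for secondary walls, 4 were lower, and of the 5 described as cellulose synthase 6, known for primary walls, 1 was higher and 0 lower. Tubulins, the subunits of the microtubules that guide cellulose synthase, were higher for 16 of 63 members and lower for 2, and the sum was 1366 to 1888 FPKM (median 1606) in ovule and 555 to 822 FPKM (median 715) in leaf. Tubulin alpha-2 chain Gh_D05G2068 had 67.3 to 151 FPKM in ovule and 9.16 to 26.3 FPKM in leaf (2.79 ± 0.09). Actins had 6 of 32 members higher and 2 lower, and genes with the same description again took opposite sides: actin 1 Gh_A01G1915 rose by 4.39 ± 0.06 and actin 1 Gh_D13G0202 fell by 3.09 (SE 0.14). Among pectin enzymes, pectate lyase Gh_D03G0971, which cuts the pectin of the middle lamella, had 25.5 to 73.7 FPKM (median 39.6) in ovule and 0.774 to 2.41 FPKM (median 1.41) in leaf. Over the 128 pectin lyases and polygalacturonases 18 were higher and 20 lower (14.1% and 15.6%, against 10.7% and 9.68% of all genes).

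Very-long-chain fatty acid enzymes, which elongate acyl chains for waxes and membrane lipids, were higher in ovule for 16 of 53 members and lower for 0, and 30.2% called higher stood against 10.7% of all genes. The sum was 335 to 489.8 FPKM (median 429) in ovule, 128 to 173 FPKM (median 149) in leaf and 202 to 269.6 FPKM in flower buds. The L ovule libraries left out of the fit had 679 and 642 FPKM, above all 19 others. Among the condensing enzymes, 3-ketoacyl-CoA synthase 19 Gh_D10G2150 had 6.95 to 14.7 FPKM (median 11.6) in ovule and at most 0.103 FPKM in leaf (3.56 ± 0.06), and 2 of 3 genes of 3-ketoacyl-CoA synthase 10, the most abundant type (165.7 FPKM against 35.1 FPKM in median sum), were higher. Lipid transfer proteins, which carry lipids to the cell surface, took both directions, with 17 of 100 higher and 13 lower. These shares of 17% and 13% stood against 10.7% and 9.68% of all genes, and 9 calls in each direction had no overlap. The protein of the lipid-transfer and seed storage family Gh_D07G1207 had 57.0 to 133 FPKM (median 116) in ovule and was listed at 0 in most leaf libraries (6.65 ± 0.08). Lipid transfer protein 1 Gh_D09G2050 had 0 to 1.41 FPKM (median 0.189) in ovule and 94.9 to 308 FPKM (median 154) in leaf.

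Sugar genes moved in both directions. Of 61 sucrose enzymes, 18 were higher and 10 lower, and the sum was 678 to 1021 FPKM (median 811) in ovule and 236 to 322 FPKM (median 284) in leaf. Sucrose synthase 4, which splits sucrose into UDP-glucose and fructose, had 6 of 10 genes higher and 2 lower. Gh_A13G1673 of this group had 20.5 to 41.0 FPKM (median 26.6) in ovule and 0.748 to 1.91 FPKM (median 1.19) in leaf (3.66 ± 0.06, limma adjusted p = 6.67e-35, no overlap). Of 4 genes for sucrose phosphate synthase 3F, an enzyme of sucrose synthesis, 2 were lower and 0 higher. Starch enzymes were balanced, with 19 of 115 higher and 19 lower. Within them, ADP-glucose pyrophosphorylase large subunit 1 Gh_D09G2066, part of the enzyme that makes the glucose donor for starch, had at most 0.0565 FPKM in ovule, against 34.1 to 78.5 FPKM (median 47.2) in leaf, whereas starch synthase 3 Gh_A10G0120 had 19.9 to 36.9 FPKM (median 29.8) in ovule and 1.76 to 3.53 FPKM (median 2.55) in leaf. Sugar transporters and SWEET genes had 11 of 69 members higher and 12 lower (15.9% and 17.4%, against 10.7% and 9.68% of all genes). Among them the Nodulin MtN3 (SWEET) gene Gh_D03G1078 rose by 3.35 ± 0.06 and polyol/monosaccharide transporter 5 Gh_Sca004812G06 fell by 4.19 (SE 0.05).

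Hormone genes changed by member. Auxin response factors, which bind the promoters of auxin-regulated genes, had 9 of 58 members higher and 0 lower, with a median of 0.36 that fell to 0.03 under median-of-ratios scaling, where 5 were still called. Aux/IAA repressors had 19 of 65 members higher and 14 lower. By contrast, auxin transport genes had 13 of 43 members lower and 2 higher, and the efflux carrier Gh_D01G1471 had 1.31 to 3.46 FPKM (median 2.59) in ovule and 39.7 to 73.5 FPKM (median 63.0) in leaf (-4.13 ± 0.06). Cytokinin-responsive GATA factor 1, a regulator of chloroplast growth in Arabidopsis, was lower for 5 of 5 genes. Of these, Gh_A05G0220 was listed at 0 in all 19 ovule libraries and had 29.3 to 52.1 FPKM (median 38.7) in leaf. Cytokinin oxidase 7 Gh_D05G0391, which breaks down cytokinin, had 11.4 to 22.9 FPKM (median 14.7) in ovule and 0.417 to 1.08 FPKM (median 0.641) in leaf. The gibberellin-regulated protein Gh_D04G0493 rose by 5.61 ± 0.15 and another of that family, Gh_A07G1108, fell by 4.84 (SE 0.08), in a list with 11 of 52 higher and 8 lower. For ethylene, ACC synthase 6 Gh_A12G2673, the enzyme that makes the ethylene precursor, had 8.90 to 21.8 FPKM (median 13.7) in ovule and 0.0732 to 4.29 FPKM (median 0.620) in leaf.

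Lipoxygenases, some of which start jasmonate synthesis in the plastid, took opposite directions. Lipoxygenase 2 Gh_D05G0683 had 2.48 to 4.14 FPKM (median 3.15) in ovule and 191 to 324 FPKM (median 259.8) in leaf (-5.97 ± 0.05), while lipoxygenase 3 Gh_D10G2595 had 19.5 to 93.5 FPKM (median 50.3) in ovule and 2.47 to 4.28 FPKM (median 3.19) in leaf (3.39 ± 0.12). Neither gene had overlapping libraries. The list as a whole had 12 of 70 members higher and 11 lower. Abscisic acid genes had 9 of 63 members lower and 3 higher (14.3% and 4.76%, against 9.68% and 10.7% of all genes). All 4 genes described as regulatory component of ABA receptor 1, a hormone receptor, were lower. In the brassinosteroid list 6 of 48 were higher and 2 lower (12.5% and 4.17%, against 10.7% and 9.68% of all genes). After median-of-ratios scaling 3 were higher and 3 lower.

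**Figure D3:**
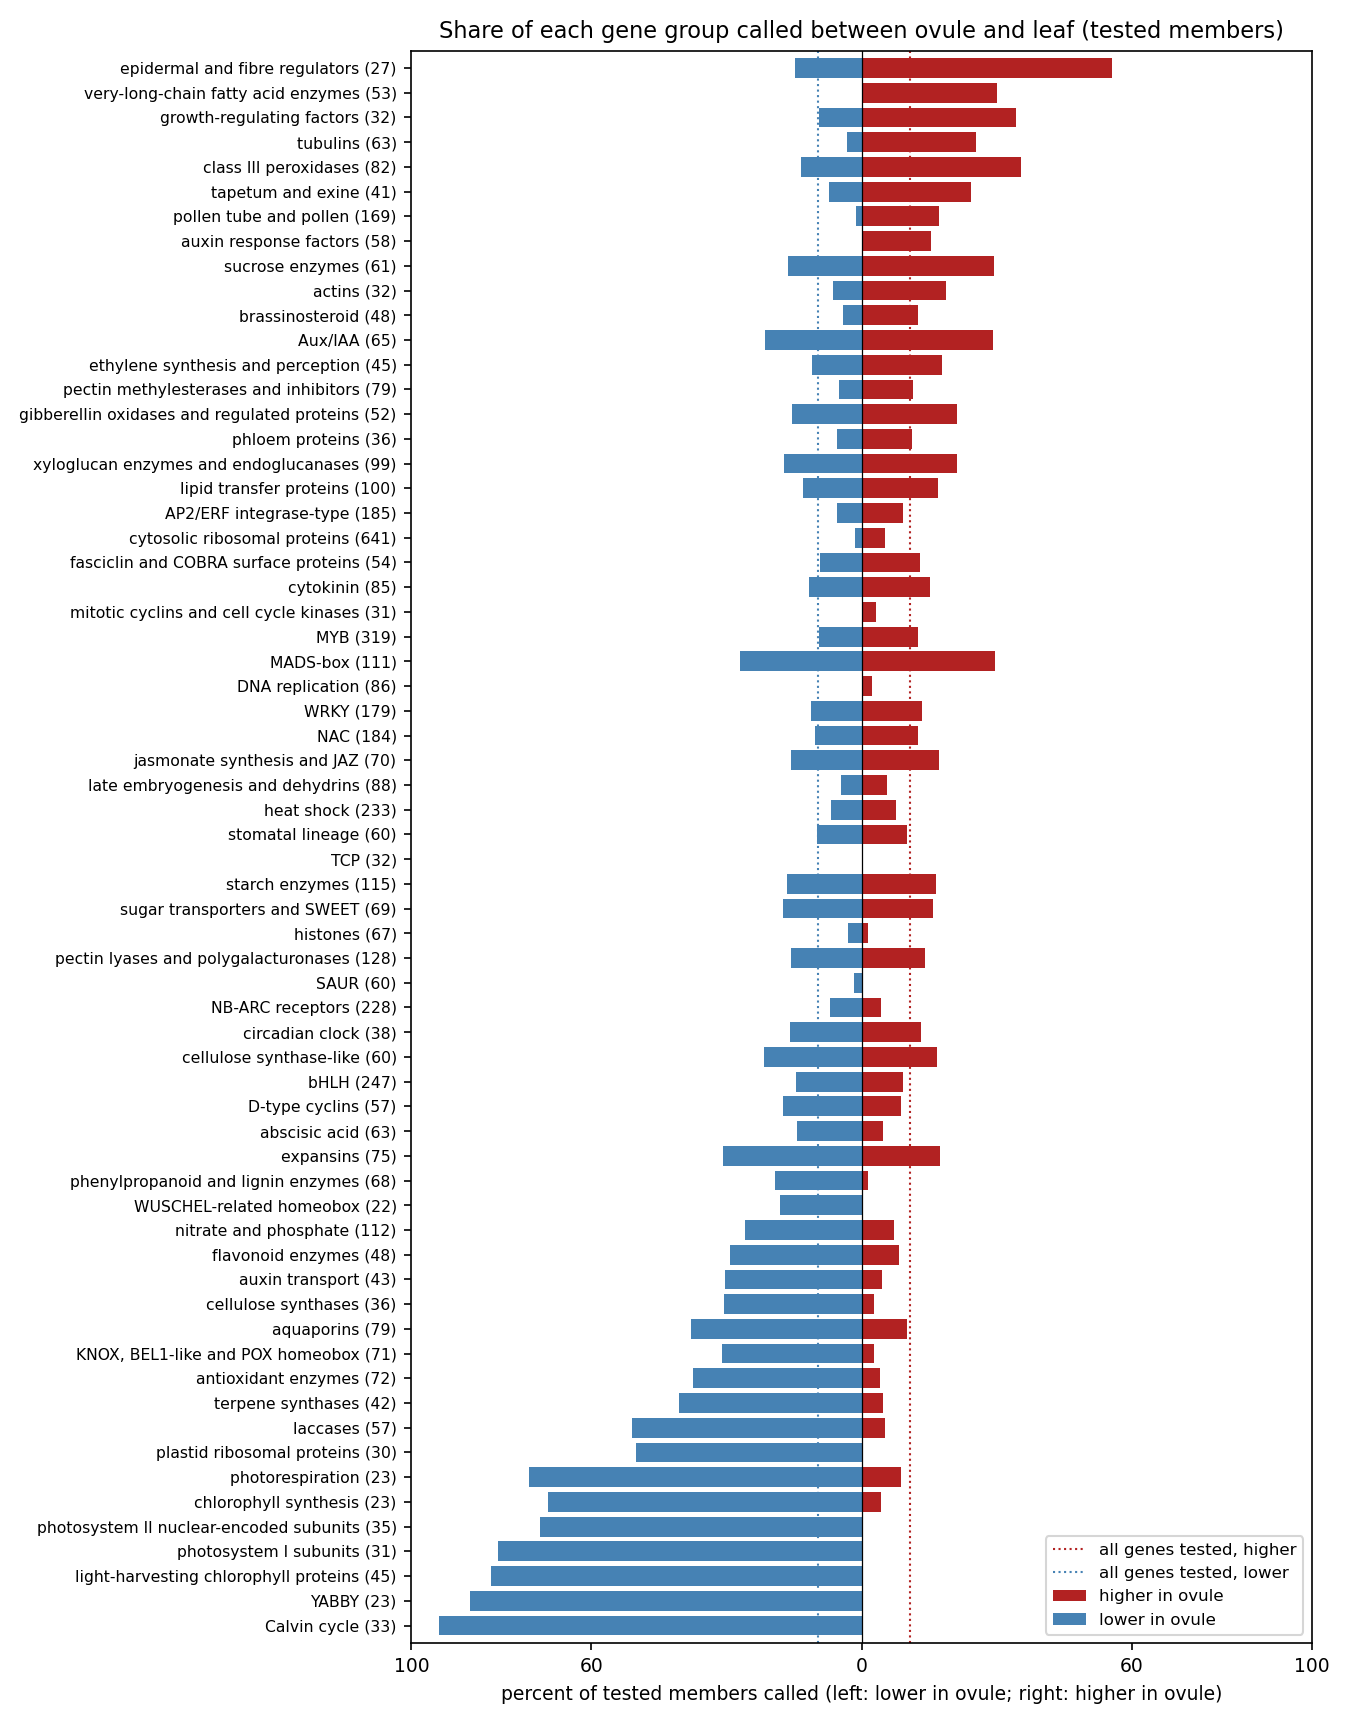
Percent of the tested members of each gene group (number in brackets) called lower in ovule (blue, left) or higher in ovule (red, right), with dotted lines at the shares of all genes tested, 9.68% lower and 10.7% higher. Calvin cycle, YABBY and light-harvesting groups reach 93.9%, 87.0% and 82.2% lower, and epidermal and fibre regulators reach 55.6% higher.

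Specialised metabolism was lower in ovule in several branches. Flavonol synthase 1, which turns dihydroflavonols into flavonols, had 4 of 6 genes lower, and Gh_D04G1957 had 0.0745 to 0.559 FPKM (median 0.232) in ovule and 67.3 to 115 FPKM (median 95.6) in leaf (-6.30 ± 0.05). Its regulator in Arabidopsis, myb domain protein 12, moved the same way: Gh_A07G1162 had 0.0537 to 1.73 FPKM in ovule and 4.44 to 38.6 FPKM in leaf (-4.03 ± 0.17). The flavonoid list as a whole had 14 of 48 lower and 4 higher (17 and 1 after median-of-ratios scaling). Anthocyanidin reductase, the enzyme of proanthocyanidin synthesis known as BANYULS and taken as a marker of the seed coat, is the gene ontology annotation of Gh_A05G1424, which had 420.1 to 542 FPKM (median 479) in ovule and 503 to 948 FPKM (median 681) in leaf. Its difference of -0.52 ± 0.05 was below the fold threshold, and the libraries overlapped, so this gene did not mark the ovule. Its wider group was mixed: of 16 proanthocyanidin enzymes and regulators 5 were higher, all without overlap, and 5 lower, and of 53 genes with a seed coat development term 3 were higher and 7 lower. Laccases, which join lignin or flavonoid units, had 29 of 57 members lower and 3 higher, and all 3 rises were in the 7 genes described as laccase 5. Laccase 14 Gh_A05G2113 had 0.414 to 2.17 FPKM (median 1.01) in ovule and 17.6 to 58.7 FPKM (median 36.7) in leaf. Terpene synthases, which make volatile and defensive terpenoids, had 17 of 42 members lower and 2 higher, and phenylpropanoid and lignin enzymes 13 of 68 lower and 1 higher (22 lower after median-of-ratios scaling).

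Defence and stress factors included marked rises in lists that were balanced as a whole. WRKY factors had 24 of 179 members higher and 20 lower (13.4% and 11.2%, against 10.7% and 9.68% of all genes). All 20 falls were in genes other than those for WRKY DNA-binding protein 40, a pathogen-responsive factor in Arabidopsis. Of its 9 genes, 6 were higher and 0 lower. Gh_D05G0600 of this group had 20.6 to 71.6 FPKM (median 40.6) in ovule and 0.886 to 8.73 FPKM (median 2.38) in leaf (3.44 ± 0.17). NAC domain containing protein 62 Gh_D09G1773 rose by 3.55 ± 0.10 and myb domain protein 30 Gh_D13G1712 by 3.47 ± 0.09, both without overlap. Among other factor families, 40 of 319 MYB genes were higher and 30 lower, and 23 of 184 NAC genes were higher and 19 lower, near the shares of all genes. Of 247 bHLH genes 23 were higher and 36 lower (14.6% lower, against 9.68% of all genes), and 0 of 32 TCP genes were called. NB-ARC receptors had 10 of 228 higher and 16 lower (4.39% and 7.02%), and heat shock genes 18 of 233 higher and 16 lower (7.73% and 6.87%). All of these shares lay below those of all genes. Which direction led in such balanced lists turned with scaling: after median-of-ratios scaling 21 WRKY genes were higher and 24 lower, as were 34 and 35 MYB genes, 18 and 24 NAC genes, 8 and 20 heat shock genes, 10 and 14 jasmonate genes, 12 and 17 Aux/IAA genes, 12 and 15 lipid transfer proteins, and 12 and 20 starch enzymes. Class III peroxidases, secreted enzymes that act on wall phenolics and hydrogen peroxide, were higher for 29 of 82 members and lower for 11. Antioxidant enzymes took the other side, with 27 of 72 lower and 3 higher. Catalase 2 Gh_D03G0021, which removes the hydrogen peroxide of photorespiration, had 0 to 0.200 FPKM in ovule and 90.3 to 286 FPKM in leaf (-7.11 ± 0.09).

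In transport of water and minerals, called falls outnumbered called rises. Aquaporins, the water channels of plasma membrane and vacuole, had 30 of 79 members lower and 8 higher. All 7 genes described as plasma membrane intrinsic protein 2 were lower, with a summed median of 6.14 FPKM in ovule and 290.3 FPKM in leaf. Gh_D04G1090 of this group had 0.425 to 2.98 FPKM (median 1.16) in ovule and 76.9 to 131 FPKM (median 94.4) in leaf (-5.49 ± 0.09). In contrast, 3 of 6 plasma membrane intrinsic protein 2;4 genes were higher and 0 lower. Nitrate and phosphate genes had 29 of 112 members lower and 8 higher (34 and 5 after median-of-ratios scaling). Purple acid phosphatase 10 Gh_A06G1838, which frees phosphate from organic compounds, had 0.110 to 0.694 FPKM in ovule and 34.6 to 53.0 FPKM in leaf. Nitrate transporter 1.7 Gh_D12G0474, which loads nitrate into the phloem of Arabidopsis leaves, went the other way, with 5.43 to 10.5 FPKM in ovule and at most 0.0927 FPKM in leaf (3.13 ± 0.05).

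Among the 12 largest rises taken over all described genes, several belong to no list above. Senescence associated gene 20 Gh_A13G0123 had 153 to 296 FPKM (median 228) in ovule and 0 to 0.292 FPKM (median 0.0727) in leaf, a rise of 7.67 ± 0.05 (limma adjusted p = 3.47e-46, higher in 19 of 19 ovule libraries than in any leaf library). The unknown seed protein like 1 Gh_A10G1660 had 30.2 to 119.6 FPKM in ovule and at most 0.0473 FPKM in leaf (6.16 ± 0.11). The cytochrome P450 gene Gh_D05G0686 rose by 6.14 ± 0.05, the DUF642 protein Gh_A09G1148 by 5.88 ± 0.06, serine carboxypeptidase-like 20 Gh_A08G2003 by 5.81 ± 0.14 and the cysteine proteinase Gh_A03G0561 by 5.62 ± 0.11. The glycosyl hydrolase family 17 gene Gh_D10G0368, of a family that holds callose-degrading enzymes, had 15.7 to 85.9 FPKM (median 48.4) in ovule and was listed at 0 in all 21 leaf libraries. Such cases were few: 60 of the genes called higher were listed at 0 in every leaf library and 134 of those called lower in every ovule library. The most abundant genes of the ovule were detected in leaf as well. Myo-inositol-1-phosphate synthase 2 Gh_A02G1268, the entry to inositol synthesis, ranked among the 8 most abundant described genes of both tissues, with 281 to 476 FPKM (median 397) in ovule and 1552 to 2442 FPKM (median 1959.6) in leaf (-2.37 ± 0.05). High mobility group B3 Gh_D01G0864, a chromatin protein, had 556 to 783 FPKM in ovule and 307 to 573 FPKM in leaf, below the fold threshold, and dehydroascorbate reductase 2 Gh_D04G0580, which regenerates ascorbate, had 323 to 452 FPKM in ovule and 92.2 to 171 FPKM in leaf (1.55 ± 0.06).

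Markers of other cells that an ovule or leaf sample could hold were read beside these results. Of 169 genes annotated to pollen or the pollen tube, 29 were higher in ovule and 2 lower, with a sum of 1256 to 1515 FPKM in ovule and 759 to 957 FPKM in leaf. Of 41 tapetum and exine genes, 10 were higher and 3 lower, with a sum of 207 to 278 FPKM in ovule and 267 to 874 FPKM in leaf. The male sterility protein related to acyl-CoA reductases Gh_A08G0044, an exine lipid enzyme, had 2.81 to 10.7 FPKM in ovule and was listed at 0 in most leaf libraries, while the largest fall of that list was in the pollen Ole e 1 family protein Gh_A07G1610, with 3.55 to 31.6 FPKM in ovule and 41.7 to 464 FPKM in leaf. Phloem proteins had 4 of 36 higher and 2 lower (11.1% and 5.56%), at 98.7 to 143 FPKM in ovule and 52.9 to 97.7 FPKM in leaf. Stomatal lineage genes had 6 of 60 higher and 6 lower (10% each way, near the shares of all genes). Their sum was 132 to 167 FPKM in ovule and 90.3 to 133 FPKM in leaf. Circadian clock genes, which follow the hour of sampling, had 5 of 38 higher and 6 lower, with pseudo-response regulator 9 Gh_A11G0920 at 1.54 to 3.43 FPKM in ovule and 18.1 to 31.2 FPKM in leaf. The part of these cells and of sampling time in the other results was not tested.

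The tissue difference was found in each genotype. Within single genotypes, 6964 (D, 10.9%) to 8975 (B, 14%) genes were higher in ovule, and the shares of A, H and L were 11.4%, 11.4% and 11.3%. The genes lower in ovule numbered 5701 in B (8.89%), 6065 in H (9.45%), 6190 in M (9.65%), 6210 in A (9.68%), 6250 in L (9.74%), 6457 in D (10.1%) and 6515 in C (10.2%), where L rests on 1 ovule library whose spread was taken to equal that of the other groups. In all 7 genotypes at once 3534 genes (5.51%) were called higher and 4000 (6.23%) lower, and 6709 of the 6890 rises and 5996 of the 6210 falls had the same sign in every genotype. The fall of rubisco activase Gh_A10G1991 ran from -10.78 to -10.24 over genotypes, and the rise of the MADS-box gene Gh_A04G1491 from 7.07 to 7.26. Other large rises were less even: expansin A8 Gh_D10G1145 ran from 4.89 to 7.03 and the gibberellin-regulated Gh_D04G0493 from 4.48 to 6.82.

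**Figure D4:**
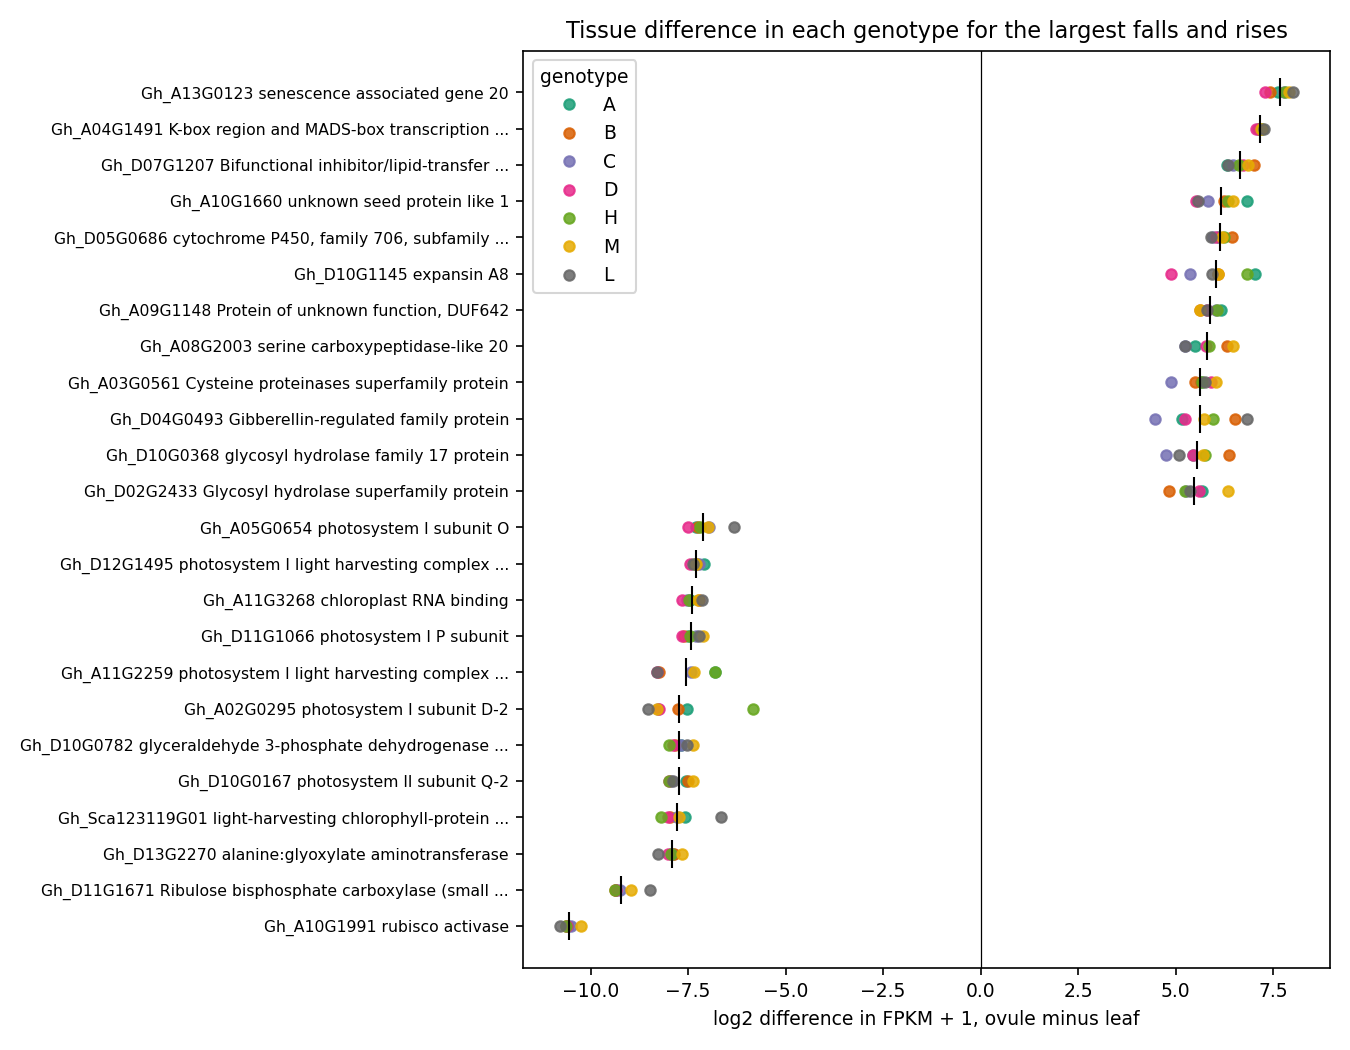
Log2 difference in FPKM + 1, ovule minus leaf, of the 12 largest falls and 12 largest rises in each of the 7 genotypes (coloured points), with black ticks at the difference over all genotypes. All points of a gene lie on its own side of 0, and the spread over genotypes is narrow for rubisco activase (-10.78 to -10.24) and wide for the gibberellin-regulated gene Gh_D04G0493 (4.48 to 6.82).

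A test of the difference itself, limma's moderated F test over the 6 contrasts between genotypes with a range above 1, called 2302 genes (3.59%). Of these, 1411 had the same sign in all genotypes and so differed in size. The genotype farthest from the median was B for 859 genes, D for 377 and L for 373. Without B 1128 genes were called, and without A 2617. The lower-Q30 ovule libraries were 1 and 2 of B and 1 to 3 of A, and A was farthest from the median for 210 genes. The part of base quality in these counts was not tested. Single genes with the largest ranges were listed at 0 in whole groups of libraries. The glycine-rich protein Gh_D05G1561 had 65.5, 64.0 and 71.5 FPKM in D ovules and was listed at 0 in all other ovule libraries, against 0 in the 3 D leaf libraries and 0 to 10.4 FPKM in the other leaf libraries. The thioredoxin family gene Gh_D01G2034 was listed at 0 in all ovule libraries and had 97.4, 87.6 and 92.0 FPKM in L leaves alone. In the contrast of the mean tissue difference in the 3 hybrids with that in the 4 parents, 21 genes (0.0327%) were more positive in hybrids and 60 (0.0935%) more negative. These counts were 42 and 123 without genotype A, the mother of all 3 hybrids, and 61 and 108 with a pseudocount of 0.1. The 4 parents weighed equally in this contrast, although A is a parent of every hybrid. A gene that differs in A alone can thus be called without departing from the mean of each hybrid's own parents. The acyltransferase gene of the MBOAT family Gh_A04G0096 had 0.759 to 5.99 FPKM in H ovules, 3.94 to 4.55 FPKM in M ovules and 6.86 FPKM in the L ovule library, against 14.6, 15.4 and 15.2 FPKM in A ovules and at most 0.0595 FPKM in B, C and D ovules. In leaf it had at most 0.0367 FPKM. Its tissue difference was 1.45 ± 0.20 more positive in hybrids than in parents (limma adjusted p = 6.52e-05), and its ovule levels in the hybrids lay between those of A and of the other parents.

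Upland cotton is a tetraploid that joins an A and a D subgenome, and gene names carry the chromosome. Rises made up 10.6% of the 23778 tested A genes and 10.4% of the 24649 tested D genes, and falls 8.67% and 8.61%. Single chromosomes ranged from 8.80% to 11.9% for rises and from 7.64% to 10.2% for falls. Candidate homoeologues were taken as descriptions found at exactly 1 tested gene on an A chromosome and 1 on the D chromosome of the same number, which gave 1562 pairs. Both copies were higher in 75 pairs and lower in 169, 1 copy alone was called in 184 (90 on A, 94 on D), neither in 1134, and 0 pairs were called in opposite directions. The copies' differences had a median distance of 0.198 on the log2 scale, and 96 pairs were more than 1 apart. Reads of near-identical copies may have been split between them, and unmatched or mislabelled pairs could not be checked.

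**Figure D5:**
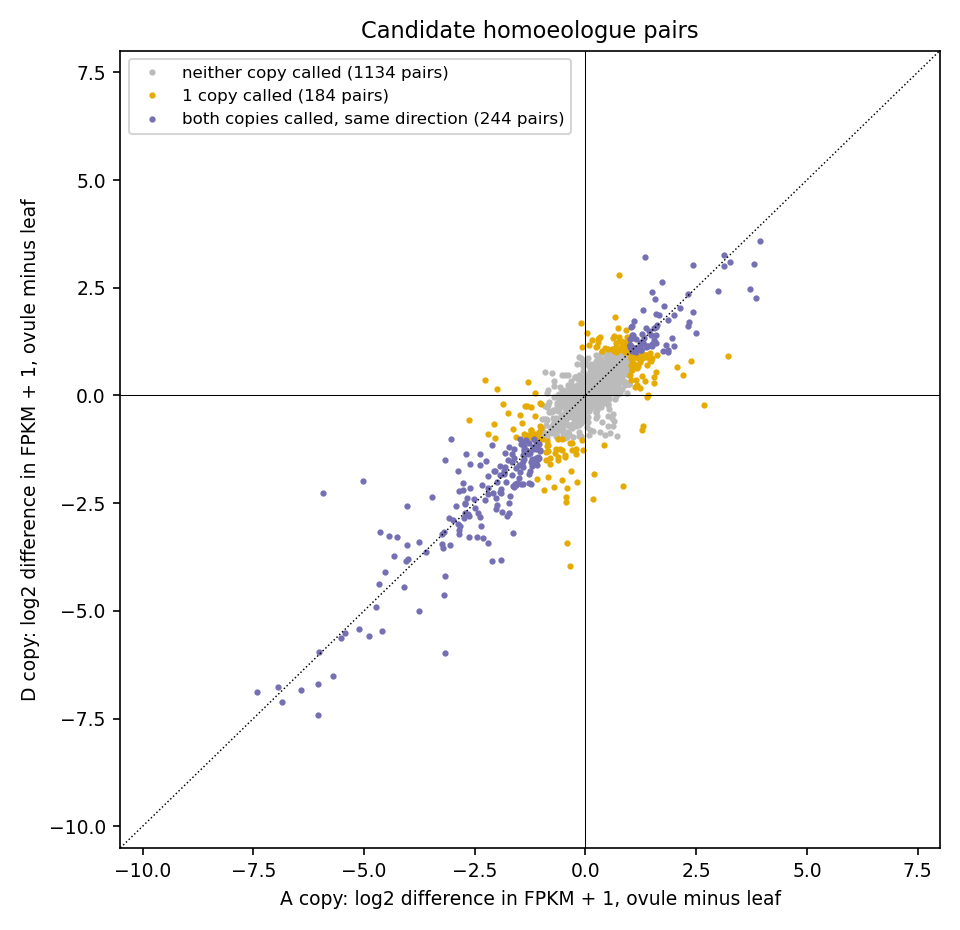
Log2 difference in FPKM + 1, ovule minus leaf, of the A copy (horizontal) and the D copy (vertical) of 1562 candidate homoeologue pairs, with a dotted line of equality. Pairs with both copies called lie in the lower left and upper right quadrants (169 lower, 75 higher), and 184 pairs have 1 copy called.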

How the data were processed

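RNA-seq libraries of leaf, flower bud and 1 DPA ovule were made from 7 genotypes with 3 replicates each. The authors deposited 1 table of FPKM values for 80325 genes on 52869 merged loci, made with Cutadapt, HISAT, StringTie and Ballgown as the study's methods and processing notes name them. Reads were aligned to the upland cotton genome, whose build name is not given in the sources used. Reads, read counts and read depth were not analysed here. The table also held 21 FPKM columns of no listed sample, which were not used. Groups came from the labels.

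Each gene past 0.5 FPKM in any of the 40 libraries was tested with limma 3.58.1 (R 4.3.3) on log2(FPKM + 1), with genotype as a block, a variance trend and robust estimation. Genes with a Benjamini-Hochberg adjusted p under 0.05 and a log2 difference above 1 or below -1 were called, and every named called gene had an adjusted p of at most 6.92e-05. A fit with 1 coefficient per genotype and tissue gave the differences within genotypes, a moderated F test over genotypes and the contrast of hybrids with parents. P-values measure the spread between the field samples of a season. Tables were summarised with Python 3.11.15 and pandas 2.3.3 and drawn with matplotlib 3.10.9.

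Named genes were the 12 largest described rises and falls, the top 3 of each of 70 lists by size of difference among calls without overlap, all marker genes, the 8 most abundant described genes of each tissue, the 5 genes with the largest range between genotypes, and the 3 that moved most in each direction between hybrids and parents. The members and lists were chosen with earlier results of these data known. In all, 62 other settings were tried: scaling, pseudocount, filter, threshold, blocking, the L libraries, base quality groups, and leaving out each library or genotype. No sequence is printed, since gene names could not be matched to a reference (0 of 65493 names).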

Additional observations from a re-analysis of the deposited data

Results flagged for a closer look

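Tests of the difference between genotypes or between hybrids and parents singled out 10 genes, each of them listed at 0 in some libraries. The tissue difference of the ribosomal protein L11 gene Gh_A03G0280 ranged by 12.74 on the log2 scale over genotypes (F test in limma, adjusted p = 4.8e-02), with values that alternated between replicates: 109.7, 0 and 0 FPKM in H ovules, against 0, 76.5 and 0 FPKM in H leaves. The ribosomal L27e genes Gh_D07G0812 and Gh_A07G0751 ranged by 8.82 and 6.93, and both were likewise listed at 0 in some replicates of a group only. The glycine-rich gene Gh_D05G1561, at 64.0 to 71.5 FPKM in D ovules and listed at 0 in the other ovule libraries, ranged by 9.35, and its difference was more negative in hybrids than in parents (-2.29 ± 0.58, SE). The thioredoxin gene Gh_D01G2034, found in L leaves alone, ranged by 6.54.

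In the contrast of hybrids with parents, the difference of the UDP-glucosyl transferase 88A1 gene Gh_D12G2681 (2.13) rests on 1 ovule library of L with 83.3 FPKM. The gene was listed at 0 in the other L ovule libraries. No error is given for it, since the single L ovule library in the fit adds nothing to the estimate of spread. The same limit holds for the L part of every other difference between hybrids and parents, and the errors printed for those rest on the spread of the other groups. The MLP-like protein 28 gene Gh_D01G1452 (1.80 ± 0.36) was detected mainly in 1 H and 1 L ovule library, at 8.65 and 15.2 FPKM. The MBOAT acyltransferase gene Gh_A04G0096 (1.45 ± 0.20) had values in all H, M and L ovule libraries. For the P-loop gene Gh_D06G1859 (-3.33 ± 0.63) and the alpha/beta-hydrolase gene Gh_D02G2441 (-2.78 ± 0.55) the values were in M and L leaves, with 1 M leaf library at 0 in each, and Gh_D02G2441 also had 8.11, 0 and 8.52 FPKM in B ovules. Of the 81 calls in this contrast, 5 had such a value of 0 beside 10 FPKM or more within a group.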

How the results depend on the processing

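Depth could not be read from FPKM, so its effect on precision is unknown. With a log2 threshold of 2, 1442 genes were higher and 2589 lower. A pseudocount of 0.1 gave 12150 higher and 9862 lower, within genotypes 11400 (A), 13726 (B), 10743 (C), 10674 (D), 11515 (H) and 11148 (M) higher, and 61 and 108 genes more positive and more negative in hybrids. Median-of-ratios scaling gave 4286 higher, and 4537 (A), 5222 (B), 4193 (H), 4184 (L) and 4460 (M) within genotypes. Replicate numbers did not pair the samples (r of -0.0345 to 0.0606 over 18 pairs, 8 of 18 ovule libraries closest to their own number), and a replicate block gave 6932 higher, 6211 lower and 1514 genes that varied between genotypes. With the L ovule libraries put back 3540 genes varied, and without B 1128 did. Without A, 42 and 123 genes differed between hybrids and parents, without M 35 and 102, and without B 35 were more negative. In all these cases the cause was not tested. Leaving out 1 library gave 6785 to 7042 higher, 6187 to 6258 lower, 1914 to 3098 varying, and 14 to 24 and 45 to 72 for hybrids, and within genotypes 6472 to 8719 and 6102 to 6537 (A), 8638 to 9451 and 5616 to 5800 (B), 6549 to 7674 and 6381 to 6600 (C), 6573 to 7255 and 6332 to 6588 (D), 7187 to 7518 and 5931 to 6100 (H), 6867 to 7562 and 6188 to 6355 (L), and 6853 to 7310 and 6076 to 6208 (M), higher and lower in that order. Of 250 named genes called, 0 changed sign under either scaling, and 4 were lost under median-of-ratios scaling and 2 with the lower-Q30 ovule libraries alone.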

Other observations

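Pathway annotations gave further groups, counted over all tested genes of a pathway, so that they can share genes with the lists above. Of all genes tested, 10.7% were higher and 9.68% lower. Fatty acid degradation had 53 of 172 genes higher in ovule and 10 lower, with a median log2 difference of 0.57, and 36 and 16 after median-of-ratios scaling (median 0.31). SNARE proteins of vesicle transport had 36 of 173 genes higher and 2 lower (18 and 4 after that scaling), and the phagosome pathway, whose plant members include tubulins and vacuolar proton pump subunits, had 82 of 415 higher and 17 lower (56 and 20 after scaling). Arginine and proline metabolism had 49 of 212 genes higher and 15 lower (31 and 17 after scaling), and fatty acid biosynthesis 34 of 143 higher and 7 lower (22 and 14 after scaling). On the other side stood carotenoid synthesis, which makes accessory pigments, with 39 of 146 lower and 10 higher (52 and 6 after scaling), and monoterpenoid synthesis, with 23 of 81 lower and 6 higher (29 and 3 after scaling).

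The pectin methylesterase inhibitor gene Gh_A11G2616, chosen after its values were seen, was listed at 0 in all leaf libraries and in many ovule libraries, beside high levels in the other ovule libraries. Among candidate homoeologues chosen in the same way, the A copy Gh_A11G0072 differed by -5.93 and the D copy Gh_D11G0074 by -2.27, while Gh_A09G2281 differed by -0.35 and Gh_D09G2003 by -3.96.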
